A study of Mus musculus with 3 samples.

Results

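The insulin-like growth factor (IGF) axis was described through 9 of the 32285 genes in the count matrices, chosen by symbol: the ligand genes Igf1 and Igf2, the receptor gene Igf1r, and the binding protein genes Igfbp2, Igfbp3, Igfbp4, Igfbp5, Igfbp6 and Igfbp7. All 9 were found in the matrices, and all were described in 31905 cells with at least 2000 unique molecular identifiers (UMIs) and at most 10% mitochondrial UMIs. The cells came from the stromal vascular fraction of inguinal fat of mice 4 weeks old, after dead and CD45+ cells had been sorted away. There was 1 library for each of 3 genotypes, which the labels call Wild-type, Mgp-KO (deletion of matrix Gla protein, a BMP-binding matrix protein, in all cells) and Pd-KO (Mgp deleted by a Pdgfra-cre transgene, which acts where Pdgfra is or was expressed). Each library pooled mice of both sexes, no floxed library without cre was used here, and the wild-type library was the control of both deletions. The wild-type library kept 7834 stromal cells of 10511, Mgp-KO 11248 of 12575 and Pd-KO 7146 of 8819. With 1 library per genotype there was no replicate, so no test of genotype could be made, and every interval below is a 95% interval of counting error only.

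IGF-I and IGF-II are small secreted growth factors that signal through the IGF-I receptor, a tyrosine kinase, in growth, survival and adipocyte differentiation. Growth hormone controls the local production of IGF-I. Most IGF in tissue is held by binding proteins, which carry it, shield it from the receptor or release it when proteases cut them. IGFBP6 prefers IGF-II to IGF-I, and IGFBP7 binds IGFs only weakly and is abundant in vessels.

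Cells were placed in classes by joint clustering without any of these genes, and classes were called "-like" from marker genes. Cells of clusters with Pdgfra at 150 CPM or more (CPM, the UMIs of a gene relative to all UMIs of the class) were clustered again. The other cells were clustered again apart from them. Stromal cells were 14 clusters of this second round. The deleted gene followed the labels: the stromal level of Mgp was 488, 1.88 and 1.62 CPM and that in smooth muscle-like cells 196, 0 and 42.6 CPM. Wherever 3 levels stand together, here and below, wild-type comes first, then Mgp-KO, then Pd-KO. The median depth was 12802 UMIs per cell in the wild-type library, 6445 in Mgp-KO and 8269 in Pd-KO, and 35 to 40 cell barcodes were shared by each pair of libraries. The header of the wild-type matrix names Cell Ranger 4, and those of both knockout matrices name version 7.1.0.

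Igf1 was found mainly in the stroma in all 3 libraries. Stromal cells held 93.8%, 97.7% and 96.3% of its UMIs. The stromal level was 428 CPM in wild-type, 387 CPM in Mgp-KO and 412 CPM in Pd-KO. Areg-like cells, named after the CD142+ adipogenesis regulatory cells, had the highest level among the 16 classes with at least 50 cells in every library, at 733, 525 and 615 CPM. Their interval did not overlap that of the next class in any library. Among the 11 stromal clusters of that size, the lowest was the Hmcn1- and Chrm3-led cluster in the wild-type library (238 CPM), the cycling cells in Mgp-KO (273 CPM) and the Sntg1-led cluster in Pd-KO (242 CPM). Outside the stroma, luminal epithelial-like cells led by Ly6d were at 11.8, 2.81 and 2.37 CPM and smooth muscle-like cells at 39.5, 0 and 21.3 CPM. Some vessel classes stood above that. Lymphatic endothelial-like cells were at 274 CPM in the wild-type library, and venular endothelial-like cells at 182 CPM there and 176 CPM in Pd-KO.

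Igf2, the imprinted growth factor best known from fetal growth, was low in most stromal cells at this age. The stromal level was 25.1 CPM in wild-type, 19.04 CPM in Mgp-KO and 27.7 CPM in Pd-KO, and 3.97%, 3.17% and 3.92% of stromal cells thinned to 2000 UMIs had a UMI of it. In the wild-type library the highest level among the 25 classes of at least 50 cells was in the endothelial-like cells led by Sema3g, at 195 CPM (122 cells, interval 164 to 229.8). In Pd-KO these cells stood at 107 CPM (89 cells), and in Mgp-KO at 161 CPM in 43 cells. The capillary endothelial-like cells led by Car4 were at 12.7, 5.08 and 10.2 CPM and those led by Esm1 at 5.26, 3.04 and 3.77 CPM, so high Igf2 was not found throughout the blood endothelium. The small Apod- and Thbs4-led stromal cluster, with 36, 19 and 33 cells, stood at 279, 37.2 and 133 CPM. Within the stroma, the Sema3c interstitial progenitor-like cells were at 48.7, 24.0 and 32.3 CPM, with a log2 ratio over wild-type of -1.02 (interval -1.17 to -0.87) in Mgp-KO. In cells typed by sex from Xist and Y-linked transcripts that ratio was -1.18 (interval -1.47 to -0.90) in female-typed and -0.37 (interval -0.60 to -0.15) in male-typed cells, so it was past 2-fold in the female-typed cells only. In Fgf10 stromal-like cells the levels were 19.5, 5.21 and 43.6 CPM, and in Pd-KO 6.57% of the 213 cells had a UMI. Pd-KO was the highest library there in female-typed cells, at 21.2, 5.27 and 60.6 CPM, and the lowest in male-typed cells, at 26.8, 6.91 and 1.29 CPM from 108, 5 and 1 UMIs.

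**Figure D1:**
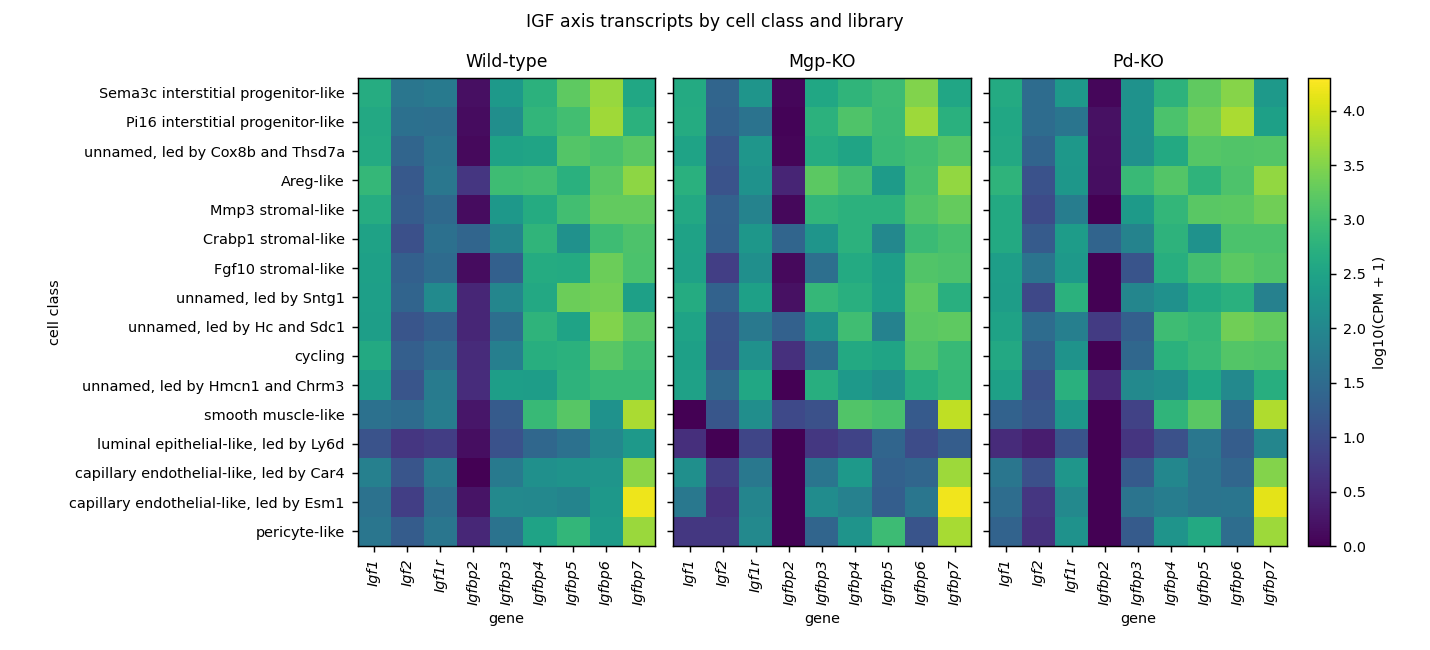
Level of each of the 9 genes (x axis) in the 16 cell classes with at least 50 cells in every library (y axis), as log10(CPM + 1) of summed UMIs, with 1 panel per library. Igfbp6 is highest in both interstitial progenitor-like rows, Igfbp7 in the Esm1-led capillary row at 13322 to 15949 CPM, and Igf1 and Igfbp3 in the Areg-like row.

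Igfbp6 and Igfbp7 were highest in different compartments. Igfbp6 was highest in Pi16 interstitial progenitor-like cells, at 4907, 4639 and 5718 CPM, followed by Sema3c interstitial progenitor-like cells at 4331, 3103 and 3312 CPM. In the Pi16 cells thinned to 2000 UMIs, 99.3%, 98.6% and 99.7% had an Igfbp6 UMI. Early adipocyte-like cells, which carry Adipoq and Plin1, were at 237 CPM in the wild-type library (161 cells), and at 95.9 and 343 CPM in the 40 Mgp-KO and 32 Pd-KO cells of that cluster. Igfbp7 in the same progenitors was low, at 367, 350.1 and 209.7 CPM in the Sema3c cells and 567, 529 and 274 CPM in the Pi16 cells. The Sntg1-led cluster was at 282, 517 and 75.5 CPM. Among the 11 stromal clusters of at least 50 cells in every library, Igfbp7 was highest in the Areg-like cells, at 3755, 3983 and 3998 CPM.

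Across all classes the capillary endothelial-like cells led by Esm1, a gene of endothelial tip cells, had the highest Igfbp7, at 15619, 15949 and 13322 CPM. The other capillary cluster, led by Car4, was at 3507, 4588 and 3207 CPM, and venular endothelial-like cells stood at 6440.4, 4879 and 6961 CPM, with 34 such cells in Mgp-KO. Smooth muscle-like cells stood at 5682, 7699 and 6067 CPM and pericyte-like cells at 4515, 5488 and 4682 CPM. The Esm1-led cells thus stood apart from every other vessel class in each library. Stromal clusters held 63.5%, 83.8% and 57.4% of the Igfbp7 UMIs, against 94.6%, 98.2% and 96.5% of those of Igfbp6. In blood endothelial-like cells as a whole the log2 ratio of Igfbp7 over wild-type was 0.16 (interval 0.13 to 0.20) in Mgp-KO and -0.039 (interval -0.062 to -0.015) in Pd-KO. Both values joined classes that differed in direction. In Mgp-KO the ratio was 0.39 in the Car4-led and 0.030 (interval -0.013 to 0.073) in the Esm1-led cells, while the venular level was below wild-type. The Sema3g-led cells were at 1939, 1306 and 2420 CPM. Esm1-led cells were 198 of 727, 83 of 222 and 199 of 651 blood endothelial-like cells.

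The low Igfbp6 outside the stroma was set against free RNA. In the wild-type library the 12 non-stromal classes of at least 50 cells carried Igfbp6 at 102 to 232 CPM, from luminal epithelial-like cells to neuron-like cells. In Mgp-KO 7 such classes were at 8.99 to 85.8 CPM (median 25.4), and in Pd-KO 8 were at 17.8 to 329 CPM (median 29.6). Barcodes with 10 to 100 UMIs, taken as free RNA, held Igfbp6 at 944, 1427 and 1287 CPM. Pdgfra, the stromal marker itself, was found in the same non-stromal classes at medians of 24.4, 6.62 and 8.15 CPM. Free RNA also differed between the libraries for Igfbp3, at 54.8, 414 and 272 CPM, and for Igfbp5, at 485, 426 and 1090 CPM. Igf1 was there at 148, 264 and 323 CPM. These values give the make-up of free RNA and not its amount. The files held 184102026, 93212243 and 83942865 UMIs, of which the kept cells held 145242566, 89572427 and 76383468. Barcodes with at least 500 UMIs numbered 35992, 13309 and 10000, and those with at least 2000 UMIs 10937, 12579 and 9006. The wild-type library thus had the most UMIs outside kept cells. The order was different in the barcodes with 10 to 100 UMIs taken as free RNA. These held 1149249, 790433 and 3343529 UMIs, so Pd-KO had the most there. The part of free RNA in the levels of Igf1, Igfbp3, Igfbp5 and Igfbp6 outside the stroma was not tested.

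Igfbp4, which encodes a binding protein cut by the protease PAPP-A, was found in stroma and smooth muscle, and its endothelial level differed by class. In the wild-type library it was highest in lymphatic endothelial-like cells, at 1152 CPM (75 cells, interval 1067 to 1241), then in Areg-like cells at 1001 CPM, whose interval of 983 to 1020.1 did not reach the first. Smooth muscle-like cells stood at 786, 1358 and 646 CPM and luminal epithelial-like cells led by Ly6d at 26.8, 6.46 and 10.7 CPM. Capillary endothelial-like cells were at 144, 208 and 97.7 CPM (Car4-led) and 99.3, 76.0 and 66.0 CPM (Esm1-led). Blood endothelial-like cells as a whole were at 267, 383 and 163 CPM. Free RNA held Igfbp4 at 271, 583 and 643 CPM, and its part in these levels was not tested. The stromal level was 571, 679.5 and 716 CPM. The Pi16 progenitor-like cells had larger differences, with 664 CPM in wild-type, 1295 CPM in Mgp-KO and 1228 CPM in Pd-KO. Those are log2 ratios of 0.96 (interval 0.93 to 1.00) and 0.89 (interval 0.85 to 0.93), while in the Sema3c progenitor-like cells the levels were 574, 659 and 611 CPM. The Hc- and Sdc1-led cluster was also higher in both knockouts, at 623, 969 and 920 CPM, as were Mmp3 stromal-like cells, at 433, 584 and 695 CPM. Of 11 stromal clusters with at least 50 cells in every library, 5 were below wild-type in Mgp-KO and 3 in Pd-KO.

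Igfbp2 was low in most stromal clusters and highest in basal epithelial-like cells. These cells, the outer layer of the mammary ducts that run through this fat pad, had 697 CPM in the wild-type library (41 cells), 445 CPM in Mgp-KO (150 cells) and 615 CPM in Pd-KO (23 cells). They held 40.7%, 55.2% and 55.2% of all Igfbp2 UMIs. Luminal epithelial-like cells led by Ltf, from the same ducts, were at 0, 2.65 and 0 CPM, so the layers of the duct differed. Among stromal cells the Crabp1 stromal-like cells, with both sexes together, were alike in the 3 libraries, at 24.4, 24.0 and 23.4 CPM. In female-typed cells of that cluster Pd-KO was at 27.6 CPM, beside 20.6 CPM in wild-type. In the male-typed ones Pd-KO was at 14.8 CPM, beside 33.0 CPM in wild-type, from 9 and 40 UMIs. The Hc- and Sdc1-led cluster was high in Mgp-KO alone, at 1.85, 20.7 and 4.57 CPM. That Mgp-KO level rested on 52 UMIs in 4.42% of 452 cells, and 49 of the UMIs were in female-typed cells. The interstitial progenitor-like cells were at 0.516, 0.180 and 0.213 CPM (Sema3c) and 0.366, 0.106 and 0.583 CPM (Pi16). The Ccl21a- and Ccl19-led cluster, with chemokines of lymphoid stroma, had 114, 34.7 and 53.5 CPM in 146, 41 and 25 cells, and it held 18.2% of the wild-type Igfbp2 UMIs.

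Igfbp2 and Igfbp5 are neighbours in the genome. In the GENCODE M21 annotation (GRCm38) Igfbp2 lies on chromosome 1 from 72824503 to 72852474 on the plus strand, and Igfbp5 from 72857932 to 72874884 on the minus strand, 5.46 kb apart with their 3′ ends facing each other. Across 62 combinations of class and library with at least 50 cells their log2(CPM + 1) levels had a Pearson r of 0.093, given as a description only, since those points share libraries. The highest r among the pairs of the 9 genes was that of Igf1 and Igfbp6, at 0.83 over the same 62 points.

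**Figure D2:**
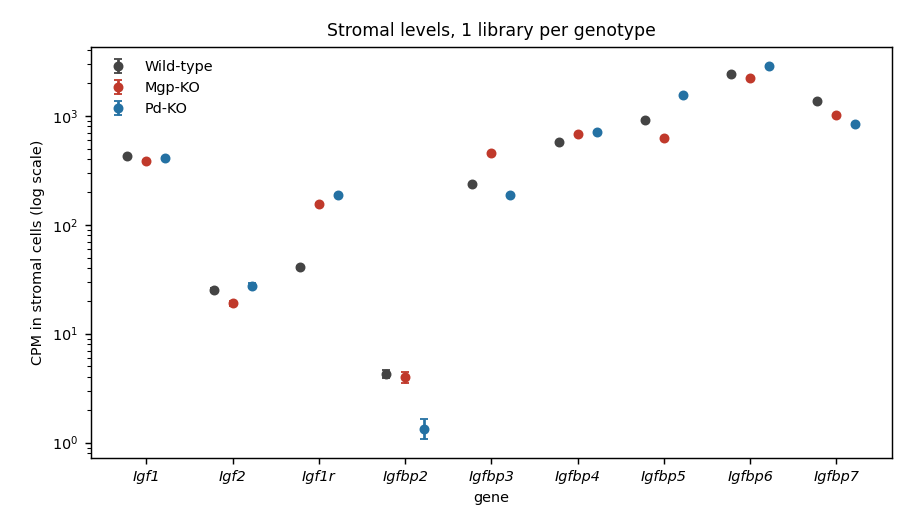
Level of each gene in all stromal cells of each library, in CPM on a log axis. Points are libraries and bars are 95% Poisson intervals of the summed UMIs, most of them smaller than the point; Igf1 and Igfbp6 lie close together in the 3 libraries, Igf1r is higher in both knockouts, and Igfbp3 and Igfbp5 part in opposite directions between the knockouts.

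The first comparison asked how the 9 genes differed in stromal cells of Mgp-KO and wild-type mice. A 2-fold difference was used to call a gene. Of 14895 genes with at least 100 UMIs in these cells, 23.4% were past 2-fold, 19.4% of all higher in Mgp-KO and 3.99% lower. Of the 9 genes, 1 was past 2-fold higher, Igf1r, and 0 were past 2-fold lower. The median log2 ratio was -0.13 over the 9 genes and 0.16 over all genes tested. The second comparison set Pd-KO against wild-type. Here 29.7% of 14890 genes were past 2-fold, 22.9% higher in Pd-KO and 6.74% lower. Of the 9 genes, 1 was past 2-fold higher, again Igf1r, and 1 was past 2-fold lower, Igfbp2. The medians were 0.14 over the 9 genes and 0.21 over all genes. With both directions joined, neither share was above that over all genes. In the lower direction alone, 1 of 9 in Pd-KO was a larger share than 6.74%, but it rested on 1 gene. The counts are thus no result about the 9 genes as a set.

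Igf1r was at 40.7 CPM in wild-type, 155 CPM in Mgp-KO and 188 CPM in Pd-KO in stromal cells. The log2 ratios over wild-type were 1.93 (interval 1.88 to 1.98) and 2.20 (interval 2.16 to 2.25). Both knockouts were above the wild-type library in 11 of 11 stromal clusters with at least 50 cells in every library, and past 2-fold in 10 of them. The exception was the Pi16 progenitor-like cells, at 36.4, 42.0 and 46.4 CPM, where the log2 ratios were 0.21 (interval 0.019 to 0.39) and 0.35 (interval 0.16 to 0.54). The Sntg1-led cluster was at 112, 281 and 547 CPM and the Hmcn1- and Chrm3-led cluster at 60.7, 369 and 535 CPM. These were the highest knockout levels among the 11 clusters. In the Hmcn1- and Chrm3-led cluster the median log2 ratio over all genes was itself 0.79 in Mgp-KO and 0.86 in Pd-KO. Its wild-type Igf1r level rested on 24 UMIs in 94 cells. Outside the stroma both knockouts were above wild-type in some classes. Epithelial-like cells were at 21.1, 63.2 and 107 CPM and smooth muscle-like cells at 65.8, 133 and 188 CPM. Luminal epithelial-like cells led by Ly6d were at 4.94, 7.02 and 11.8 CPM. Mgp-KO was not above wild-type in the Car4-led capillary cells, at 60.7, 50.8 and 181 CPM. Nor was it in the Sema3g-led endothelial-like cells, at 77.4, 73.6 and 205 CPM. Those Mgp-KO levels rested on 10 and 11 UMIs. Free RNA held Igf1r at 69.6, 84.8 and 183 CPM, and its part in these levels was not tested.

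Genomic span moved with these ratios. Igf1r, on chromosome 7, spans 281 kb, the longest of the 9 genes, and the 200 genes nearest to it in span had median log2 ratios of 1.89 in Mgp-KO and 2.09 in Pd-KO. After those medians were taken off, 0.040 and 0.11 remained. Between the knockouts, whose headers name the same Cell Ranger version, Igf1r differed by 0.28 and its span neighbours by 0.29. Genotype and Cell Ranger version cannot be told apart in the comparisons with the wild-type library.

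**Figure D3:**
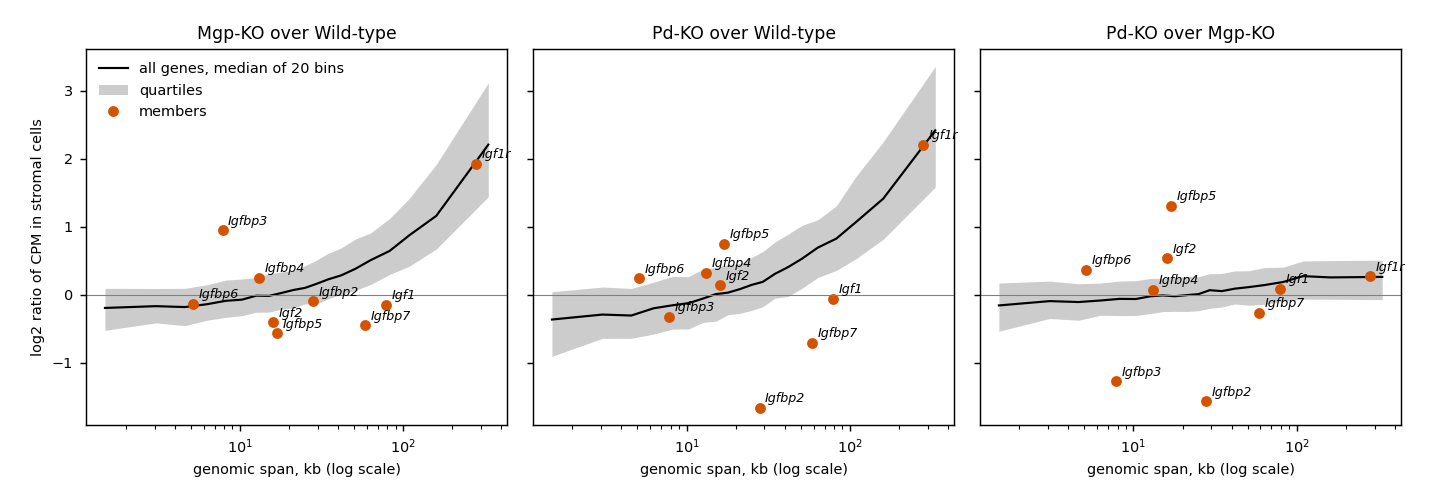
Log2 ratio of CPM in stromal cells against genomic span in kb (log axis) for the 9 genes (orange) and for all genes tested (black line, median of 20 span bins; grey band, quartiles), with 1 panel per comparison. Both comparisons with the wild-type library bend upwards for long genes and Igf1r lies on that bend, while the line between the 2 knockouts stays between -0.16 and 0.28.

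The same trend stood beside the other long genes. Igf1 spans 78.8 kb and its span neighbours had median log2 ratios of 0.61 in Mgp-KO and 0.81 in Pd-KO, beside -0.15 and -0.056 for Igf1 itself. Igfbp7, at 58.8 kb, stood at -0.44 and -0.71 beside 0.46 and 0.70 for its neighbours. Both genes were thus lower than the median of genes of like span. Of the 200 neighbours, 92.5% in Mgp-KO and 87% in Pd-KO were at or above Igf1. For Igfbp7 these shares were 94.5% and 95.5%. Igf2 and the binding protein genes other than Igfbp7 span 5.15 to 28.0 kb, where the medians of the neighbours lay between -0.30 and 0.11 in both comparisons.

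Igfbp3, which encodes the main carrier of IGFs in blood, was at 235 CPM in wild-type, 454 CPM in Mgp-KO and 188 CPM in Pd-KO in stromal cells. Mgp-KO was the high library over all stromal cells but not in male-typed stromal cells. There the levels were 228, 204 and 210.2 CPM, with both knockouts just below wild-type and close to each other. The log2 ratio over wild-type was 0.95 (interval 0.93 to 0.97) in Mgp-KO, just under 2-fold, and -0.32 (interval -0.35 to -0.29) in Pd-KO. Areg-like cells had the highest level in each library among the 16 classes, at 939, 1634 and 827 CPM. The smaller Ccl21a- and Ccl19-led cluster was at 675, 1047 and 1198 CPM in 146, 41 and 25 cells, above the Areg-like cells in Pd-KO. In Mgp-KO Igfbp3 was above wild-type in 10 of 11 stromal clusters, and past 2-fold higher in 5 of them. Stromal cells held 91.2%, 96.8% and 94.9% of the Igfbp3 UMIs.

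The ratio of Igfbp3 differed among the clusters, from -1.21 to 2.96 in Mgp-KO. Pi16 progenitor-like cells stood at 134 CPM in wild-type, 569.7 CPM in Mgp-KO and 152 CPM in Pd-KO. In Mmp3 stromal-like cells the levels were 192, 679 and 215 CPM. The Sntg1-led cluster had 94.8, 738 and 94.0 CPM, so over both sexes Mgp-KO was the high library in these clusters. In male-typed cells the levels were 105, 178 and 215 CPM in the Pi16 cells, with Pd-KO the highest. They were 197, 229 and 224 CPM in the Mmp3 cells and 117, 163 and 96.8 CPM in the Sntg1-led cluster, where the intervals of both male ratios over wild-type included 0. In those male-typed Pi16 cells the Pd-KO log2 ratio over wild-type was 1.03 (interval 0.88 to 1.19), beside -0.28 (interval -0.50 to -0.060) in the female-typed ones. Male-typed cells were 478 of 1225, 200 of 1869 and 338 of 1193 Pi16 cells, and female-typed cells 290, 576 and 183. Most Pi16 cells of both knockouts thus had no type, and these typed values do not cover them. Cycling cells went the other way, at 70.8, 30.7 and 26.2 CPM, both knockouts being lower. In blood endothelial-like cells the levels were 147, 151 and 97.4 CPM, with a log2 ratio over wild-type of 0.034 (interval -0.25 to 0.31) in Mgp-KO. That value joined classes that differed in direction. The Sema3g-led cells were at 274, 442 and 467 CPM, the venular cells at 189, 49.9 and 127 CPM and the Car4-led capillary cells at 55.3, 45.7 and 15.3 CPM, the Mgp-KO levels resting on 66, 6 and 9 UMIs.

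Igfbp5, which encodes an IGF carrier that binds to matrix, differed from wild-type in opposite directions in the knockouts. The stromal level was 922 CPM in wild-type, 625 CPM in Mgp-KO and 1551 CPM in Pd-KO. The log2 ratios over wild-type were -0.56 (interval -0.58 to -0.55) and 0.75 (interval 0.74 to 0.76), neither past 2-fold. Mgp-KO was below wild-type in 11 of 11 stromal clusters, past 2-fold in 4 of them. Pd-KO was above wild-type in 9 of 11, past 2-fold in 3, and below it by more than 2-fold in 1.

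The progenitor-like clusters differed in Igfbp5. In the Pi16 cells it was at 1004, 864 and 2316 CPM, with log2 ratios of -0.22 (interval -0.26 to -0.18) in Mgp-KO and 1.21 (interval 1.18 to 1.24) in Pd-KO. In the Sema3c cells the levels were 1723, 892 and 1779.9 CPM, with ratios of -0.95 (interval -0.97 to -0.92) and 0.047 (interval 0.027 to 0.067). The larger difference thus lay in Pd-KO for the Pi16 cells and in Mgp-KO for the Sema3c cells. The Fgf10 stromal-like cells had 425, 257 and 1019 CPM and the Areg-like cells 529.6, 231 and 629 CPM. In the Sntg1-led cluster both knockouts were lower, with 2156, 264 and 404 CPM. Its 202, 470 and 353 cells had median depths of 4790, 6826 and 3969 UMIs, whose part in that result was not tested. Igfbp4 and Igfbp7 in that cluster were also lower in Pd-KO, at log2 ratios of -1.40 and -1.90, and higher in Mgp-KO, at 0.38 and 0.88. The Igfbp6 ratio of Pd-KO there was -2.42 in female-typed and -2.07 in male-typed cells. Igfbp3 stood there at 94.8 CPM in wild-type and 94.0 CPM in Pd-KO.

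Igfbp5 was also high in muscle and epithelium. Smooth muscle-like cells stood at 1525, 1117 and 1594 CPM. In pericyte-like cells the order was different, with 689.9, 900 and 414 CPM. Basal epithelial-like cells were at 1334, 1502 and 1724 CPM. Luminal epithelial-like cells led by Ltf were at 1749 CPM in 52 wild-type cells and 979 CPM in 101 Mgp-KO cells, while those led by Ly6d were at 40.0, 24.4 and 49.7 CPM.

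**Figure D4:**
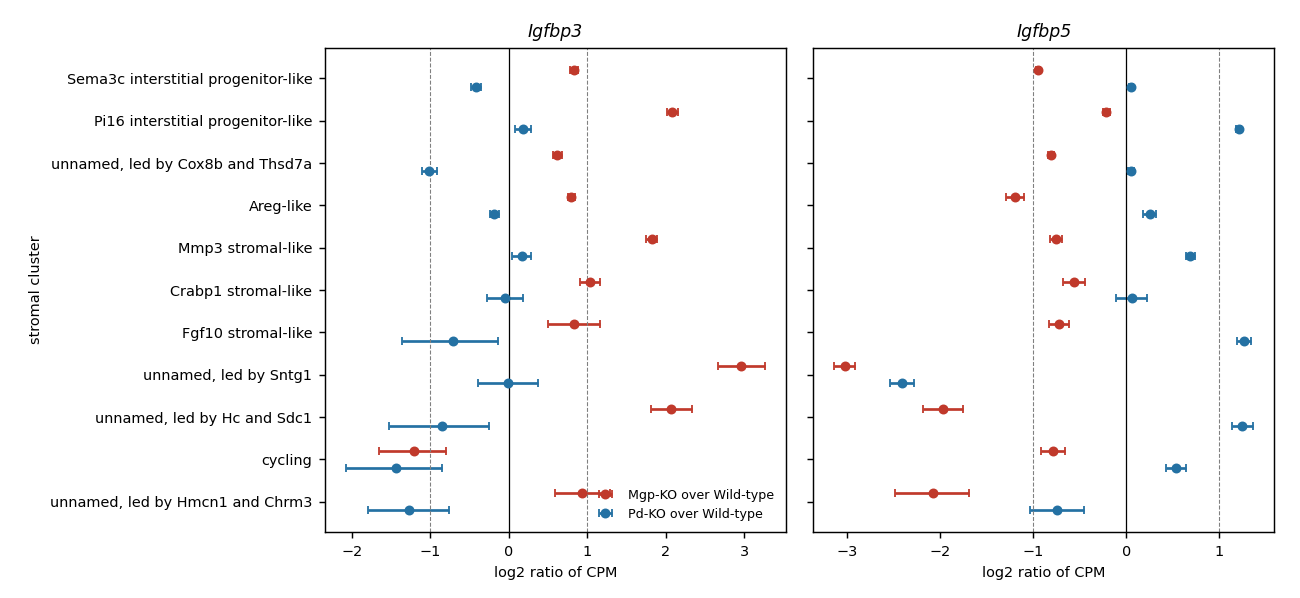
Log2 ratio of CPM over the wild-type library for Igfbp3 (left) and Igfbp5 (right) in the 11 stromal clusters with at least 50 cells in every library, with Mgp-KO in red and Pd-KO in blue. Bars are 95% exact counting intervals and dashed lines mark 2-fold; the red points lie right of the blue points for Igfbp3 in all 11 clusters and left of them for Igfbp5 in all 11.

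Set directly against each other, Pd-KO was below Mgp-KO for Igfbp3 by a log2 ratio of -1.27 (interval -1.30 to -1.24) and above it for Igfbp5 by 1.31 (interval 1.30 to 1.33). This comparison was chosen after seeing the data, because the headers of its 2 matrices name the same Cell Ranger version. Of 14964 genes, 8.23% were past 2-fold, 3.17% higher in Pd-KO and 5.06% lower. Of the 9 genes, 1 was past 2-fold higher, Igfbp5, and 2 were lower, Igfbp2 and Igfbp3. In male-typed stromal cells the Igfbp3 ratio was 0.041 and the Igfbp5 ratio 0.81, neither past 2-fold. Across the 11 stromal clusters, both sexes together, Igfbp3 was lower in Pd-KO in 11, past 2-fold in 9. Igfbp5 was higher in Pd-KO in 11, past 2-fold in 7.

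Sex moved with the Igfbp3 and Igfbp5 values. Cells with a Xist UMI and no Y-linked UMI were typed as female and cells with the reverse as male, which left 29.8%, 24.7% and 28.0% of the cells, with both or neither, without a type. Female-typed cells were 35.1% of the wild-type library, 60.6% of Mgp-KO and 32.5% of Pd-KO. Among the Pi16 progenitor-like cells of both knockouts most cells had no type. In female-typed stromal cells Igfbp3 was at 243, 518 and 143 CPM, and in male-typed stromal cells at 228, 204 and 210.2 CPM. Stromal cells without a type were at 235, 497 and 213 CPM. The Mgp-KO log2 ratio over wild-type was thus 1.09 (interval 1.06 to 1.12) in female-typed and -0.16 (interval -0.22 to -0.10) in male-typed cells. Of the 7 stromal clusters with at least 50 cells of each sex in both libraries, the female ratio was above the male one in 7, and the signs were opposite in 3. The ratio was 2.04 (female) and 0.76 (male) in Pi16 progenitor-like cells, and 0.58 and 0.50 in Areg-like cells. The signs were opposite in Sema3c progenitor-like cells (1.01 and -0.46), the Cox8b- and Thsd7a-led cluster (0.97 and -0.26) and Fgf10 stromal-like cells (0.66 and -1.43). The male value of the Fgf10 cells rested on 4 Mgp-KO UMIs and its interval of -3.35 to 0.00020 reached 0.

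For Igfbp5 over all stromal cells the sexes differed most in Pd-KO. Female-typed stromal cells had 769.6, 578 and 1886 CPM and male-typed stromal cells 1017, 695 and 1215 CPM. Those without a type were at 976, 693 and 1699 CPM. The Pd-KO log2 ratio over wild-type was 1.29 (interval 1.27 to 1.31) in female-typed and 0.26 (interval 0.24 to 0.28) in male-typed cells. In the Sema3c progenitor-like cells it was 0.46 and -0.35, in the Pi16 cells 1.65 and 0.85, and in the Fgf10 cells 1.28 and 1.28. Crabp1 stromal-like cells went the other way, with -0.34 and 1.46. Over all stromal cells the lower level in Mgp-KO was present in both sexes, with log2 ratios of -0.41 and -0.55. Each sex within a library is still a single pool, so the difference between the sexes was not tested.

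**Figure D5:**
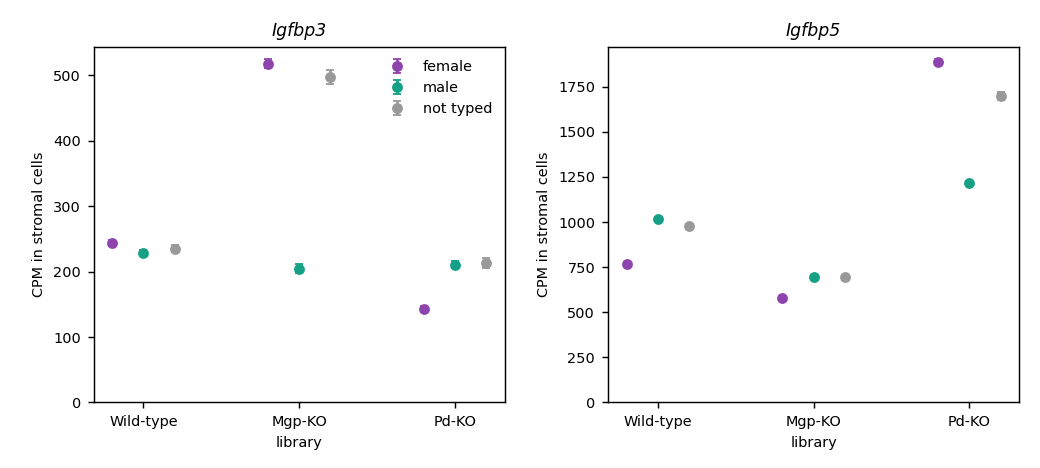
Igfbp3 (left) and Igfbp5 (right) in stromal cells of each library in CPM, by sex typed from Xist and Y-linked transcripts, with cells of no type in grey; points are 1 pool of cells each and bars are 95% Poisson intervals. The highest Igfbp3 is that of female-typed Mgp-KO cells (518 CPM) and the highest Igfbp5 that of female-typed Pd-KO cells (1886 CPM).

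The mix of clusters moved with the stromal levels of Igfbp6, Igfbp7 and Igfbp2. Sema3c progenitor-like cells were 10.3% of all cells in the wild-type library, 27.7% in Mgp-KO and 32.5% in Pd-KO. Igfbp6 in stromal cells was at 2441, 2231 and 2887 CPM, with log2 ratios over wild-type of -0.13 and 0.24. When the clusters were weighted as in the wild-type library these became -0.36 and -0.094, so the sign in Pd-KO changed. Igfbp7 levels of 1378, 1013 and 845 CPM gave log2 ratios of -0.44 and -0.71, which became -0.0050 and 0.073. The weighted Pd-KO value joined clusters that differed in direction, with log2 ratios from -1.90 to 0.40. Of 11 stromal clusters, 6 were below wild-type, 2 of them past 2-fold, and 5 were above it. The Pi16 cells were at -1.05 and the Sema3c cells at -0.81. The Igfbp2 ratio of Pd-KO rested on 89 UMIs against 496 in the wild-type library, at levels of 4.25, 3.98 and 1.34 CPM, and went from -1.66 to -0.53.

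The rest of the pathway was read from a list of 31 genes, of which 28 had at least 100 UMIs in stromal cells. In Mgp-KO 8 were past 2-fold higher and 0 lower, beside 19.4% and 3.99% of all genes: Insr, Pappa2, Grb10, Ghr, Stat5b, Foxo3, Igf2bp2 and Igf2bp3. In Pd-KO 12 were past 2-fold higher and 0 lower, beside 22.9% and 6.74% of all genes, namely Insr, Igfals, Pappa2, Irs1, Grb10, Ghr, Jak2, Stat5b, Foxo1, Foxo3, Igf2bp2 and Igf2bp3. The median log2 ratio of the list was 0.55 in Mgp-KO and 0.72 in Pd-KO, beside 0.16 and 0.21 over all genes. The span trend applied to this list too. With the median of the 200 genes nearest in span taken off each gene, an alternative chosen after seeing the data, 1 of the 28 stayed past 2-fold higher in Mgp-KO (Igf2bp2) and 3 in Pd-KO (Igfals, Ghr, Stat5b), while 2 were past 2-fold lower in each (Pappa, Grb14). The share of all genes past 2-fold after this correction is not given here. The counts above, with or without the correction, are therefore no result about the pathway.

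By role, the growth hormone receptor gene Ghr had the largest ratio of the list in both comparisons, with stromal levels of 45.6, 272 and 382 CPM. Its log2 ratios of 2.58 and 3.07 stood beside 1.86 and 2.03 for genes of like span. The insulin receptor gene Insr was at 19.01, 46.5 and 60.9 CPM, and Igf2r, which encodes the receptor that clears IGF-II, was at 64.2, 83.5 and 120.2 CPM. The adaptor gene Grb10, an inhibitor of IGF and insulin receptor signalling, was at 140.2, 360.1 and 384 CPM. Pappa2, whose protease cuts IGFBP3 and IGFBP5, was low at 0.762, 3.71 and 1.86 CPM. The protease gene Htra1, at 609, 547 and 525 CPM, was not past 2-fold in either comparison. Between the knockouts 0 of the 28 genes were past 2-fold higher in Pd-KO and 2 lower, a share near the 5.06% of all genes that were lower. These were the protease gene Adamts1 (337 CPM in Mgp-KO and 167 CPM in Pd-KO) and Socs2, a feedback inhibitor induced by growth hormone (47.7 and 21.7 CPM).

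The genes whose pattern over the 62 combinations of class and library was most like each of the 9 were found by Pearson r of log2(CPM + 1) among 13027 genes, as a description. Igfbp6 was nearest to Mfap5 (0.98), Clec3b (0.98) and Dpt (0.97). Igf1 was nearest to Tfpi2 (0.92), Ifi211 (0.91) and Csf1 (0.90), and Igf1r to Ulk2 (0.88), Ksr1 (0.87) and Ttc28 (0.87). The points differ in library as well as in class, and r does not separate these. Igf1r was higher in both knockout libraries, and the part of that difference in its r was not tested. Igfbp4 was nearest to Csrp2 (0.87), Vim (0.86) and Crtap (0.85), and Igfbp7 to Sparcl1 (0.86), BC028528 (0.84) and Gng11 (0.83). The other 4 genes had lower values of r. Igfbp5 was nearest to Vasn (0.78), Cryab (0.75) and Prelp (0.72), and Igf2 to Fhl1 (0.73), Fbln5 (0.71) and Ehd1 (0.69). Igfbp3 was nearest to Slc43a3 (0.72), Pnp (0.70) and Fbln1 (0.70), and Igfbp2 to Pla2g7 (0.69), Bdnf (0.67) and Fsd1 (0.66). Mfap5, Clec3b, Vim, Sparcl1, BC028528, Gng11, Cryab, Fbln5, Fbln1, Pla2g7 and Bdnf were among the variable genes used to cluster the cells. Their values of r thus rest on classes that they helped to make.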

How the data were processed

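The authors deposited whole UMI counts per gene and barcode, unfiltered, from 10x Genomics 3′ libraries. The submitters' processing notes name Cell Ranger 6.1.1 and GRCm39, the study's methods name mm10, and the headers name other versions. Intron handling was not given in the sources used here. The files held 83942865 to 184102026 UMIs each. Barcodes with at least 2000 UMIs and at most 10% mitochondrial UMIs were kept. Libraries were clustered together on 2000 variable genes and 30 principal components, integrated with Harmony (theta 2), by Leiden at resolution 0.5 (scanpy 1.11.5, leidenalg 0.10.2), with the 9 genes, the pathway list, Mgp and sex-linked genes kept out. Clusters were named after their leading genes had been seen, and 4 clusters with mixed markers were left out of the classes. Counts were summed per class and library and divided by all UMIs of the class. Intervals are exact Poisson for levels, exact conditional binomial for ratios and Clopper-Pearson for shares (scipy 1.17.1). The ratio step was tested on simulated data. Doublets were called with Scrublet at a score of 0.3 (3.01% to 3.47% of cells per library) and removed only as an alternative. Named genes were the 9 members, every other pathway gene past 2-fold, and the 3 genes nearest to each member by Pearson r among genes reaching 20 CPM. Igf2r and Htra1 were added after their values were seen. The members and lists were chosen with earlier results of these data known. The alternatives were a minimum of 5000 UMIs, marker gates, no integration, median-of-ratios and TMM scaling, equal cell weights, each sex alone, span correction, fixed cluster weights, doublets left out and no low-count filter.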

Additional observations from a re-analysis of the deposited data

Results flagged for a closer look

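Igfbp3 had opposite signs in the sexes in Mgp-KO over wild-type: the log2 ratio was 1.09 in female-typed stromal cells and -0.16 in male-typed stromal cells. Igf1 had opposite signs in Pd-KO over wild-type, with 0.11 in female-typed and -0.17 in male-typed stromal cells. Within clusters, Igf2 in Pd-KO over wild-type was at 1.52 in female-typed and -4.38 (interval -9.70 to -1.87) in male-typed Fgf10 stromal-like cells, the latter from 1 Pd-KO UMI. Igfbp3 in Pd-KO over wild-type was at -0.28 in female-typed and 1.03 in male-typed Pi16 progenitor-like cells, and most Pd-KO cells of that cluster had no type. Igfbp5 in Pd-KO over wild-type was past 2-fold higher in Fgf10 stromal-like cells, at 1.26, and past 2-fold lower in the endothelial-like cells led by Sema3g, at -2.74. The latter were at 189 CPM in the wild-type library and 28.4 CPM in Pd-KO. Igfbp6 in the same cells was at 182 and 28.4 CPM, each Pd-KO level resting on 9 UMIs. Over the non-stromal classes of at least 50 cells, 12 in wild-type and 8 in Pd-KO, the median Igfbp5 level was 158 and 47.0 CPM. The median Igfbp6 level was 179 and 29.6 CPM, so the Sema3g-led cells were near the non-stromal medians for Igfbp6. The sets of classes are unlike, so these medians do not show a difference within the same classes. The part of free RNA in these levels was not tested. None of these differences was tested, since each group is 1 pool of cells.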

How the results depend on the processing

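No paired analysis was possible because each genotype has 1 library. The 1 gene past 2-fold in Mgp-KO over wild-type became 2, Igf1r and Igfbp3, in female-typed cells only, with each cell weighted equally, and with clusters weighted as in the wild-type library. With the span correction the gene was Igfbp3 in place of Igf1r. The 2 past 2-fold in Pd-KO over wild-type became 1, Igf1r, with those cluster weights. They were Igf1r and Igfbp5 in female-typed cells, and Igfbp2 and Igfbp7 with the span correction. The 3 past 2-fold between Pd-KO and Mgp-KO became 1, Igfbp2, in male-typed cells, where Igfbp3 stood at 0.041, a changed sign, and Igfbp5 at 0.81. They became 2 with those cluster weights, where Igfbp2 stood at -0.35, and with at least 5000 UMIs per cell, where Igfbp3 stood at -0.94. The cause was not tested. The share of all genes past 2-fold is not given for these alternatives, so the changed counts are no result about the 9 genes. Over 11 alternatives the Mgp-KO log2 ratio over wild-type ran from -0.16 to 1.09 for Igfbp3 and from -0.77 to -0.41 for Igfbp5, and that of Pd-KO from 0.26 to 1.29 for Igfbp5. Median-of-ratios scaling took the Igf2 ratio of Pd-KO from 0.14 to -0.071. With classes gated by markers, the highest class matched for 4 of the 9 genes, and the gates held no class for several clusters. Without the low-count filter the share of genes past 2-fold went from 23.4% to 31.8% in Mgp-KO, from 29.7% to 36.0% in Pd-KO, and from 8.23% to 17.1% between the knockouts.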
